A study of Mus musculus with 4 samples.

Results

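The 6 chemokine genes Ccl1, Ccl3, Ccl4, Ccl5, Ccl20 and Xcl1, whose products are secreted attractants that T cells are known to make, were followed in CD4 T cells sorted from the large intestine of mice. They are 6 of the 18194 genes that the arrays named through a single gene symbol, and they were taken by name as chemokines of T cells. Each had 1 probe set with that symbol, so no choice between probe sets had to be made. The cells were CD4+ T cells that collagenase released from the lamina propria, the connective tissue under the gut epithelium, of 129/B6 mixed mice. All mice were heterozygous for a GFP knock-in at the Gpr15 locus, so that green fluorescence reported activity of the locus while 1 Gpr15 allele stayed intact. The GFP-positive group (Gpr15-expressing) and the GFP-negative group of the same tissue each had 2 arrays, replicate 1 and replicate 2. No mouse without the knock-in, no treatment and no time course entered the comparison, and the age and number of mice per sample are not given in the labels. Fluorescence from the locus is a proxy for the receptor and was not itself measured on the arrays.

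Chemokines are small secreted proteins that draw cells along a gradient by engaging G protein-coupled receptors on the responding cell. Ccl3, Ccl4 and Ccl5 act through an overlapping set of receptors for inflammatory chemokines that includes Ccr1 and Ccr3, while Ccl1 acts through Ccr8, Ccl20 through Ccr6, and Xcl1 through Xcr1 on cross-presenting dendritic cells. Effector T cells release Ccl3, Ccl4, Ccl5 and Xcl1 together with interferon gamma when their antigen receptor is engaged, and Th17 cells are known for Ccl20. In RefSeq's mouse gene table Ccl1, Ccl3, Ccl4 and Ccl5 lie on chromosome 11 and Ccl20 and Xcl1 on chromosome 1. Ccl3 and Ccl4 are direct neighbours there, with 0 protein-coding genes between them, and 2 separate Ccl5 from Ccl3. The table's assembly was used for gene order only.

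The chemokine genes did not share 1 direction. Xcl1, Ccl1 and Ccl5 had lower signals on both GFP-positive arrays than on both GFP-negative arrays, Ccl20 had higher signals on both, and Ccl3 and Ccl4 overlapped between the groups. Groups without overlap were seen for 4 of the 6 genes and for 47.4% of all tested genes (18.6% lower, 28.7% higher). Over all genes, limma called 4 of 12253 tested genes at an adjusted p under 0.05, a share of 0.0326%, and 0 of the 6 chemokine genes were among them. At an unadjusted p under 0.05 there were 3 lower chemokine genes (Xcl1, Ccl1, Ccl5) against a background of 4.37% of tested genes lower, and 1 higher (Ccl20) against 10.2% higher, together 14.6%. By size, Xcl1 and Ccl1 were at least 2-fold lower without overlap of the groups, where 1.31% of tested genes were, and Ccl20 was at least 2-fold higher, where 3.4% were, together 4.71%. The median log2 difference was -0.59 over the 6 genes and 0.07 over all tested genes, and it was positive for 2 of the 6 (Ccl20 and Ccl3) and for 57.7% of all tested genes. In sorted populations such as these, fewer cells that make a transcript and less transcript per cell cannot be told apart.

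**Figure D1:**
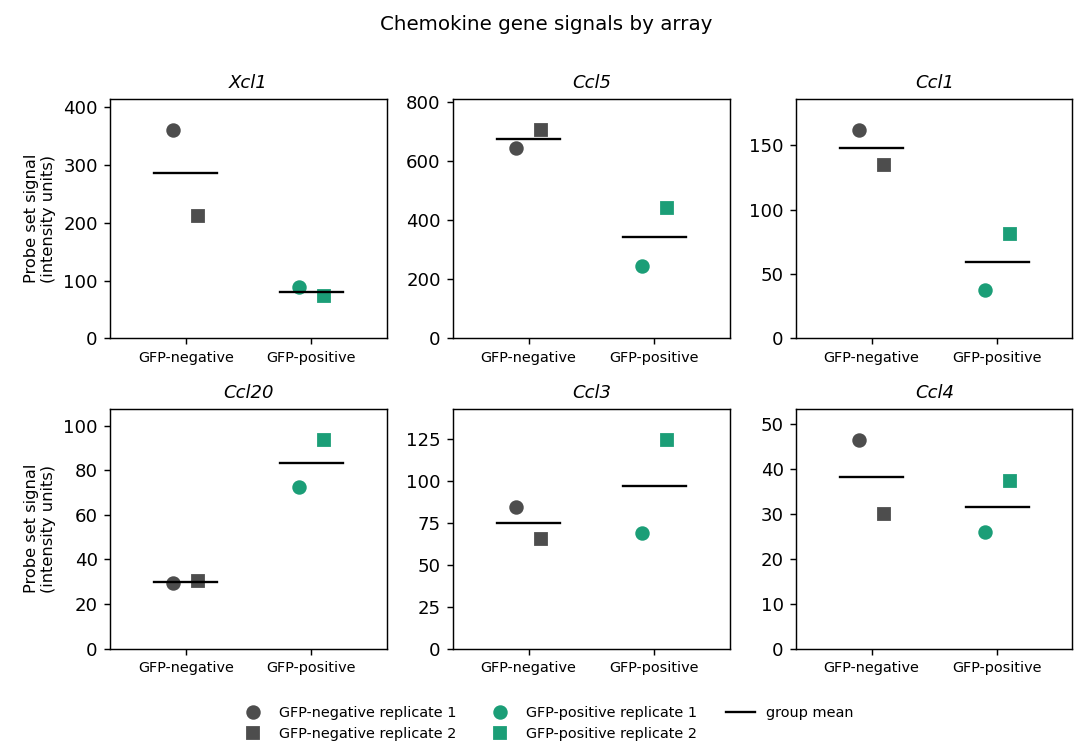
Signals of the 6 chemokine genes, in intensity units on axes that start at 0, by group; each point is 1 array (circles replicate 1, squares replicate 2) and each bar a group mean. Both GFP-positive arrays lie below both GFP-negative arrays for Xcl1, Ccl5 and Ccl1 and above them for Ccl20, while the groups overlap for Ccl3 and Ccl4.

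The arrays themselves differed in ways that run across or along the groups. Gpr15 had signals of 154 ± 11.1 (SD, n = 2) and 674 ± 77.9 (SD, n = 2) in GFP-negative and GFP-positive cells, following the sort. Its log2 difference was 2.02 with a limma adjusted p of 0.083, so the gene of the sort was itself not called. The T cell genes Cd3e and Cd4 had log2 differences of -0.16 and -0.01. Of the 6 CD4 T cell markers measured 5 had negative differences, with a median of -0.21, and the lowest was Lat, a T cell receptor adaptor, at -0.89 (limma adjusted p = 0.23). Xist was at 4172 and 4313 on both arrays numbered 1 and at 55.1 and 112 on both numbered 2, the levels of female and male animals, so each chemokine's difference is also given within each replicate number, that is within each sex. Every array had a trimmed mean signal of 150.0, and the median signal was at most 37.0 on the GFP-negative and at least 45.2 on the GFP-positive arrays. Scaling each array to the same median therefore moved the median difference of all tested genes to -0.20, and under it 162 genes were at least 2-fold higher and 409 lower without overlap, in place of 416 and 161. Quantile normalization gave 264 and 201, and cyclic loess 259 and 202. Macrophage markers were highest on GFP-positive replicate 2, where 11 of 12 measured genes peaked and the summed signal was 1538 against 213 to 383 on the other arrays. They also ran along the groups, with 11 of the 12 differences positive and a median of 0.70. Of the 7 tested, 2 were at least 2-fold higher without overlap (3.4% of all tested genes). These were Csf1r, at 7.73 and 10.7 against 35.5 and 164, and Mrc1, at 19.5 and 41.9 against 48.4 and 139. The other Csf1r probe sets had differences of 0.09 and 0.37. Epithelial markers were highest on GFP-positive replicate 1, where 11 of 12 peaked and the sum was 3267 against 759.9 to 1011 elsewhere. The 6 B and plasma cell markers measured all had positive differences, with a median of 0.47. Jchain, a plasma cell gene, was bright on all 4 arrays, at 3852 and 4455 in GFP-negative and 6219 and 4093 in GFP-positive cells.

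Xcl1, lymphotactin, had the widest separation of the 6. Its signals were 361 and 212 in the GFP-negative group and 88.5 and 73.9 on the GFP-positive arrays, in the order of replicates 1 and 2. The groups did not overlap, and the GFP-negative arrays lay further apart than the GFP-positive ones. The group means were 287 ± 105 and 81.2 ± 10.4 (SD, n = 2 each), so that the signal in GFP-negative cells was 3.53 times that in GFP-positive cells. On the log2(signal + 16) scale, on which all differences here were fitted and which understates changes of dim genes, the difference was -1.60 (95% interval -2.34 to -0.85), with a limma adjusted p of 0.167. The arrays numbered 1 differed by -1.85 and those numbered 2 by -1.35, and it ranked 33rd lowest of the 12253 tested genes. Its adjusted p was 0.0360 with a pseudocount of 64 and 0.0155 with trend and robust settings, over a range of 0.0155 to 0.392 in 13 alternatives.

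Ccl5, known as RANTES, a chemokine that memory and cytotoxic T cells store or release on activation, measured 645 and 705 in GFP-negative cells and 245 and 442 in GFP-positive cells. The groups did not overlap, and the GFP-positive arrays lay further apart than the GFP-negative ones. The means were 675 ± 42.0 and 343 ± 140 (SD, n = 2 each), a 1.97-fold higher signal in GFP-negative cells. The log2 difference was -0.998 (-1.78 to -0.21; limma adjusted p = 0.274), made up of -1.34 between the arrays numbered 1 and -0.65 between those numbered 2. Without GFP-positive replicate 1, the array of the lowest Ccl5 signal, the difference was -0.59, and without GFP-positive replicate 2 it was -1.41. Ccl5 was also past 2-fold with a pseudocount of 1 (-1.03), under median scaling (-1.31, which is -1.11 relative to all genes) and without GFP-negative replicate 1 (-1.06).

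Ccl1, a chemokine of activated T cells that attracts Ccr8-bearing cells, had signals of 162 and 134 in GFP-negative cells and 37.3 and 81.1 in GFP-positive cells. Again both GFP-positive arrays were below both GFP-negative arrays, and replicate 1 of the GFP-positive group was the lowest. The means were 148 ± 19.4 and 59.2 ± 30.9 (SD, n = 2 each), and GFP-negative cells had 2.50 times the signal. The log2 difference was -1.18 (-2.01 to -0.36; limma adjusted p = 0.25). The arrays numbered 1 differed by -1.74 and those numbered 2 by -0.63. Ccl1 no longer reached 2-fold without GFP-positive replicate 1, where the difference was -0.75, nor with a pseudocount of 64, where it was -0.80.

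Markers of natural killer cells and CD8 T cells, which also make Xcl1 and Ccl5, were read beside these genes. The 5 natural killer markers measured summed to 355 and 422 in GFP-negative cells and 207 and 323 in GFP-positive cells. Of them, Ncr1, the most restricted to natural killer and innate cells, had signals from 2.28 to 12.6, higher on both GFP-positive arrays. All of these lay below the filter of 27.3 for tested genes. Klra8, also too dim to be tested, had 4.75 and 45.7 against 5.27 and 5.28, and Klre1 had a difference of 0.43 (-0.41 to 1.27). The larger part of the sum came from Klrd1 and Klrk1, which T cells can express too, with differences of -0.62 and -0.87. The CD8 genes Cd8a and Cd8b1 summed to 76.9 and 61.4 in GFP-negative and to 64.4 and 84.7 in GFP-positive cells. The Cd8a probe set used had a difference of 0.44, while its other probe sets had -0.57 to -0.06. Cd8b1 had -0.44 and was too dim to be tested. The part of the natural killer list in the lower Xcl1 and Ccl5 signals was not tested.

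Ccl20, the ligand of Ccr6, ran the other way. Its signals were 29.5 and 30.3 on the GFP-negative arrays and 72.6 and 93.7 on the GFP-positive arrays. The GFP-negative arrays were nearly equal and both GFP-positive arrays stood well above them. The means were 29.9 ± 0.58 and 83.1 ± 14.9 (SD, n = 2 each), a 2.78-fold higher signal in GFP-positive cells. The log2 difference was 1.10 (0.55 to 1.65; limma adjusted p = 0.181), made up of 0.96 between the arrays numbered 1 and 1.24 between those numbered 2, and it was the 288th highest of the tested genes. It was under 2-fold with quantile normalization (0.91), cyclic loess (0.89), median scaling (0.87, which is 1.07 above the median of all genes under that scaling), a pseudocount of 64 (0.64) and without GFP-positive replicate 2 (0.95).

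Gut epithelium also makes Ccl20. On GFP-positive replicates 1 and 2 the epithelial sum was 3267 and 759.9 and Ccl20 was at 72.6 and 93.7. Epcam, an epithelial adhesion molecule, was at 72.3 and 42.5 on the GFP-negative arrays and at 246 and 175 on the GFP-positive arrays, higher on both. Krt18 was also higher on both, at 38.2 and 50.6 against 225 and 76.5. The rest of the list went otherwise on GFP-positive replicate 2. There Krt8, Krt19, Krt20, Cdh1, Muc2, Zg16, Car1 and Lgals4 were below both GFP-negative arrays, and Vil1 and Fabp2 lay between them. Without GFP-positive replicate 1 the Ccl20 difference was 1.26. The part of epithelial cells in the Ccl20 signal was not tested.

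The sequences just before the start sites of Xcl1 and Ccl1, the lower pair by size, and of Ccl20, the higher gene, are shown so that their short elements can be compared. They are the 250 bases upstream of the annotated start in RefSeq's mouse build GRCm38.p6, written 5′ to 3′ on the strand of the gene. The promoter table held 4 of the 6 genes, and Ccl4 and Ccl5 were not in it. Capitals mark matches, on either strand, to any of 6 short motifs. One resembles the NF-kB element and asks for GGG, any 5 further bases and then CC. The letters GGAAAA resemble the core of the element of NFAT proteins. The letters GGTGTGA resemble the element of T-box proteins, and those of ROR receptors are represented by AGGTCA here. The letters TATAA resemble the TATA box, while TGACTCA resembles the element of AP-1 proteins.
Xcl1, chr1:164935523-164935772, minus strand: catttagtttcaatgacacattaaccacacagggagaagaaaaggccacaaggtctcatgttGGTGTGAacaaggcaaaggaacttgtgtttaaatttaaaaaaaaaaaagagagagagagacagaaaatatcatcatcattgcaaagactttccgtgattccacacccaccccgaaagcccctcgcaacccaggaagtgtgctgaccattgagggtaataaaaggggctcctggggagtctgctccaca
Ccl1, chr11:82179813-82180062, minus strand: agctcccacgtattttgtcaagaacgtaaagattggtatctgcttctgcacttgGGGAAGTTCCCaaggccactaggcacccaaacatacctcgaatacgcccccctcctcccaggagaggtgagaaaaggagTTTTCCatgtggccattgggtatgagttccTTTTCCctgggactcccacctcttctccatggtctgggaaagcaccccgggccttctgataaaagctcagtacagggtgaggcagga
Ccl20, chr1:83116516-83116765, plus strand: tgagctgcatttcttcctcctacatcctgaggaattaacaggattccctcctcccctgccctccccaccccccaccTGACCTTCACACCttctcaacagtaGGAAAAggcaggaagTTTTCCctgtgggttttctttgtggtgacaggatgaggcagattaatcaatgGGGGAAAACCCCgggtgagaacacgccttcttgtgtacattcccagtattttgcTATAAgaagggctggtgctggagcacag

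The 3 upstream regions differed in these letters. Xcl1 had a single match, the T-box-like GGTGTGA, 188 to 182 bases before the start, and this motif occurred in 3.33% of the 32851 upstream regions of the table. T-box factors such as T-bet, encoded by Tbx21, direct type 1 effector genes. Ccl1 had the NFAT-like letters at 2 places and a palindromic stretch that matched the NF-kB-like motif on both strands, where the matches overlap. The NF-kB-like motif was found in 45.8% and the NFAT-like motif in 20.4% of all upstream regions, so neither is rare. Ccl20 carried an ROR-like match 174 to 169 bases and directly next to it a T-box-like match 168 to 162 bases before its start. It also had 3 NFAT-like matches, of which 1 overlaps a run of 4 overlapping NF-kB-like matches between 82 and 71 bases before the start, and a TATA-like match from 28 to 24. The ROR-like motif occurred in 14% and the TATA-like motif in 22.8% of all regions. Ccl3, whose sequence is not printed, had 1 ROR-like, 1 NFAT-like and 2 TATA-like matches, and the AP-1-like motif (4.46% of regions) had no match in the 4 genes. A match is a run of letters and not a shown binding site.

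Ccl3 and Ccl4, the macrophage inflammatory proteins, are made by activated T cells and by macrophages. Ccl3 had signals of 84.7 and 65.4 in GFP-negative cells and 69.0 and 124 in GFP-positive cells, so that GFP-positive replicate 1 lay between the GFP-negative arrays. The means were 75.0 ± 13.7 and 96.7 ± 39.2 (SD, n = 2 each), and the log2 difference was 0.27 (-0.49 to 1.03; limma adjusted p = 0.735). Ccl4 had signals of 46.4 and 29.9 in GFP-negative cells and 25.8 and 37.3 in GFP-positive cells, with each group holding 1 lower and 1 higher array. Its means were 38.2 ± 11.7 and 31.6 ± 8.10 (SD, n = 2 each), and the log2 difference was -0.18 (-0.83 to 0.47; limma adjusted p = 0.793). The intervals reach from a decrease to an increase for both genes, so neither a direction nor equality was shown.

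Both neighbours had opposite signs within the 2 replicate numbers. For Ccl3 the difference was -0.25 in replicate 1 and 0.79 in replicate 2, and for Ccl4 it was -0.58 and 0.22. Ccl3 was highest on GFP-positive replicate 2, the array of the highest macrophage markers, where the macrophage complement gene C1qb had a signal of 700.4 against 13.7 to 85.0 on the other 3 arrays. Without that array the Ccl3 difference was -0.09. For Ccl4 the sign turned without GFP-negative replicate 1, to 0.04. The part of the macrophage markers in these values was not tested.

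**Figure D2:**
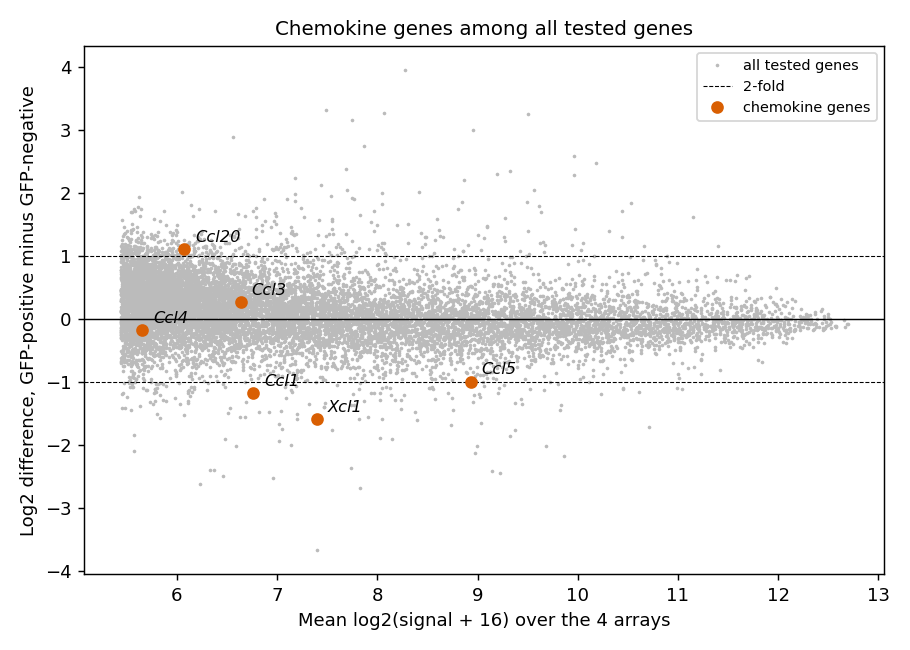
Log2 difference between GFP-positive and GFP-negative cells (vertical axis) against the mean log2(signal + 16) over the 4 arrays (horizontal axis) for the 12253 tested genes in grey and the 6 chemokine genes in orange; dashed lines mark 2-fold. Xcl1 at -1.60 and Ccl1 at -1.18 lie below the lower line, Ccl5 at -0.998 lies at it, Ccl20 at 1.10 lies above the upper line, and Ccl3 and Ccl4 lie near 0.

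The receptors that these chemokines engage were read next, since the same cells may respond to them. The receptor genes analysed were 5, Ccr1, Ccr3, Ccr6, Ccr8 and Xcr1. All 5 had positive differences with groups that did not overlap, against the 28.7% given above, although Xcr1 turned to -0.01 under cyclic loess and -0.02 under median scaling. The median difference was 1.20, or 0.90 under median scaling, 0.70 without GFP-negative replicate 2 and 0.70 without GFP-positive replicate 1. By limma 0 of the 5 were called, 4 were higher with an unadjusted p under 0.05 (10.2% of all tested genes) and 3 were at least 2-fold higher without overlap (3.4%).

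Ccr1, a receptor of Ccl3 and Ccl5, had signals of 46.4 and 41.6 in GFP-negative cells and 248 and 139 in GFP-positive cells. The log2 difference was 1.76 (1.001 to 2.51; limma adjusted p = 0.152), and its other probe set had 2.25. Ccr3, a receptor of Ccl5 known from eosinophils and Th2 cells, had signals of 51.2 and 42.6 against 211 and 86.1, a difference of 1.28 (0.29 to 2.27; adjusted p = 0.273). The arrays numbered 1 differed by 1.76 and those numbered 2 by 0.80, and without GFP-positive replicate 1 it was 0.70. Both receptors were thus higher on each GFP-positive array while Ccl5 was lower there. Ccr1 is also abundant on myeloid cells. The macrophage sum was 213 and 383 on the GFP-negative arrays. It was 293 and 1538 on GFP-positive replicates 1 and 2, where Ccr1 was at 248 and 139. The macrophage markers Csf1r and Mrc1 were, like Ccr1, higher on both GFP-positive arrays. The part of macrophages in the Ccr1 signal was not tested.

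Ccr8, the receptor of Ccl1 and a marker of regulatory and Th2 cells, had signals of 231 and 107 in GFP-negative cells and 349 and 422 in GFP-positive cells. The difference was 1.20 (0.29 to 2.11; limma adjusted p = 0.269), made up of 0.57 between the arrays numbered 1 and 1.83 between those numbered 2. Without GFP-negative replicate 2, the array of the lowest signal, it was 0.70. For this ligand and receptor pair the signs were opposite, with Ccl1 lower and Ccr8 higher on both GFP-positive arrays. Ccr6, the receptor of Ccl20, had signals of 212 and 163 against 339.9 and 259.9, a difference of 0.63 (0.01 to 1.26; limma adjusted p = 0.341), so that ligand and receptor had the same sign. Xcr1, which is known from dendritic cells rather than T cells, had signals of 40.9 and 42.1 against 59.8 and 43.0, a difference of 0.22 (-0.35 to 0.79). The 7 dendritic cell markers measured, Xcr1 among them, summed to 241 and 232 against 395 and 455, with 6 positive differences. Zbtb46 was the brightest of them, at 135 and 119 against 220 and 278. The part of dendritic cells in the receptor signals was not tested.

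**Figure D3:**
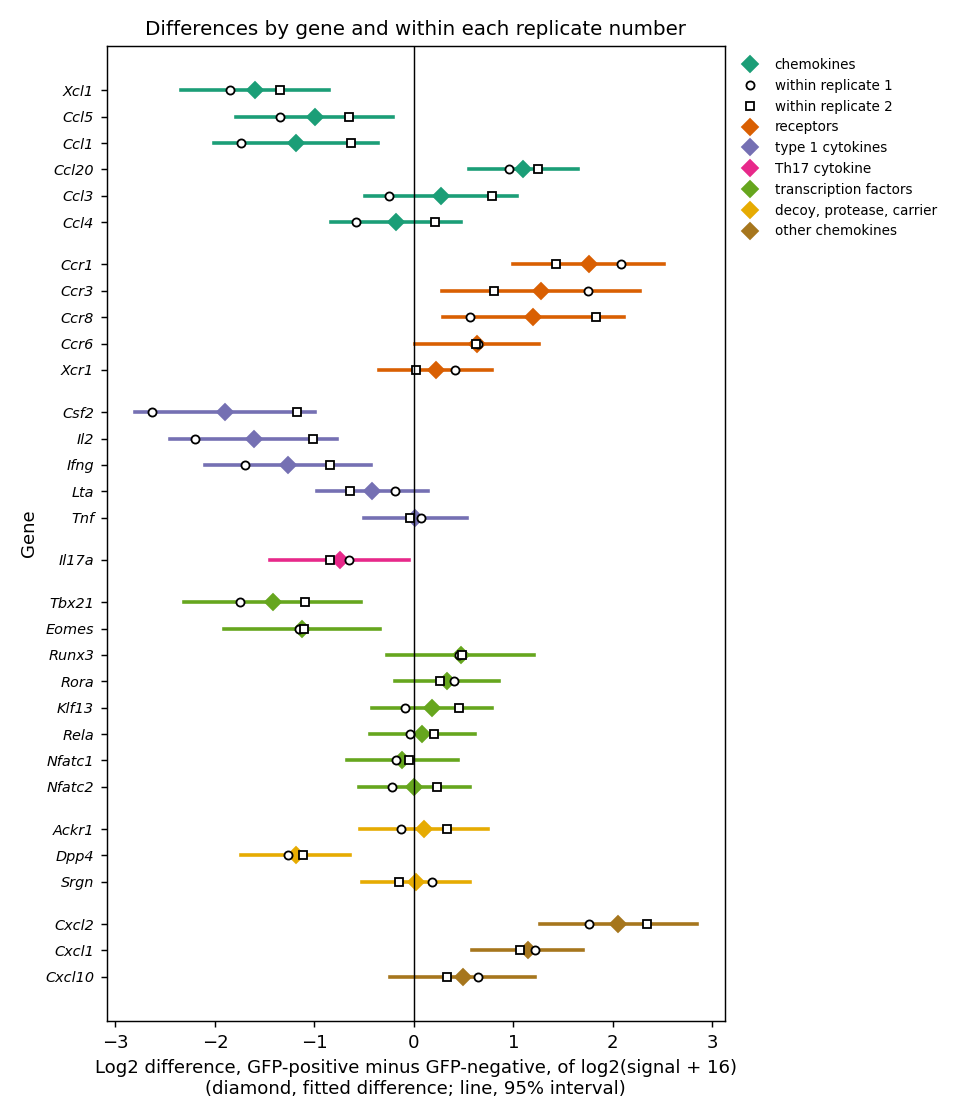
Log2 differences, GFP-positive minus GFP-negative, for the chemokine genes, their receptors and listed partner genes; diamonds are fitted differences, lines 95% intervals, open circles and squares the differences within replicates 1 and 2. Intervals lie wholly below 0 for Xcl1, Ccl5, Ccl1, Csf2, Il2, Ifng, Il17a, Tbx21, Eomes and Dpp4, and wholly above 0 for Ccl20, Ccr1, Ccr3, Ccr8, Ccr6, Cxcl2 and Cxcl1.

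Cytokines released alongside these chemokines by type 1 effector T cells were taken as partners. Of 5 measured, 3 were at least 2-fold lower without overlap (1.31% of all tested genes) and 0 higher (3.4%), the median difference was -1.27, and limma called 0. Ifng, interferon gamma, had signals of 1457 and 769.9 in GFP-negative cells and 439 and 423 in GFP-positive cells, and Csf2, the growth factor of myeloid cells, had 633 and 377 against 89.0 and 158. Il2, the T cell growth factor, had 780.4 and 421 against 157 and 200.1. As with Xcl1 and Ccl1, GFP-negative replicate 1 was the highest array for all of these 3. Lta, lymphotoxin alpha, and Tnf had differences of -0.42 (-0.98 to 0.14) and 0.02 (-0.50 to 0.54), and Tnf changed sign under quantile, cyclic loess and median scaling.

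Transcription factors linked to these chemokine genes were less uniform. Of 8 measured, 2 were at least 2-fold lower without overlap (1.31% of all tested genes) and 0 higher (3.4%), and limma called 0. Tbx21, which encodes T-bet, had signals of 195 and 92.7 against 47.0 and 35.0, a difference of -1.42 (-2.31 to -0.53). Eomes, its relative in cytotoxic cells, had 68.5 and 108 against 22.0 and 42.0, a difference of -1.13 (-1.91 to -0.34), with another probe set at -1.95. Runx3, a factor of cytotoxic and Th1 cells, had a difference of 0.47 (-0.27 to 1.21). Klf13, known as a late activator of Ccl5, had 0.18 (-0.42 to 0.78), with its other 2 probe sets at -0.43 and -0.45. Rora, a factor of Th17 and innate lymphoid cells, had 0.34 (-0.19 to 0.86). Its other 5 bright probe sets had 0.40 to 0.76, and 3 dim ones had -0.68 to 0.43. Nfatc1, Nfatc2 and the NF-kB subunit gene Rela had -0.12, 0.00 and 0.08, with signs that turned under other settings. Nfkb1 was not analysed here.

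Among the Th17 genes listed with Ccl20, Il17a and Ccr6 were measured. Il17a had signals of 184 and 277 in GFP-negative cells and 111 and 148 in GFP-positive cells, a difference of -0.75 (-1.45 to -0.05; limma adjusted p = 0.326). Ccl20 and Ccr6 were thus higher and Il17a lower on both GFP-positive arrays. Il17f, Il22 and Il23r were not analysed here.

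Of the genes that handle secreted chemokines, Dpp4 encodes the surface peptidase CD26, which trims the amino end of Ccl5 and other chemokines. It had signals of 1734 and 1873 in GFP-negative cells and 712 and 857 in GFP-positive cells, groups that lay far apart relative to their spread. The log2 difference was -1.19 (-1.73 to -0.64; limma adjusted p = 0.167), made up of -1.26 between the arrays numbered 1 and -1.11 between those numbered 2. Its other bright probe set had -0.83, and 2 dim ones had 0.34 and 0.03. Srgn, serglycin, the granule proteoglycan that carries basic chemokines, was bright at 4521 to 5407 on all 4 arrays, with a difference of 0.02 (-0.52 to 0.56). The decoy receptor gene Ackr1 had a difference of 0.10 (-0.54 to 0.74), which turned under 4 settings, and Ackr2 was too dim to be tested, with probe sets from -0.44 to 0.95.

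The other chemokine ligands of the family were set beside the 6 genes. Of 32 listed, 29 had a probe set, of which 23 had a positive difference. The median of the 29, dim genes included, was 0.36, and over all genes without the filter it was 0.096. The 17 bright enough to be tested include Pf4 and Ccl9, whose mean signals lay under the filter of 27.3 in GFP-negative cells (23.9 and 26.4) and above it in GFP-positive cells (55.1 and 48.4). Positive differences were seen for 14 of the 17 and for 57.7% of all tested genes. By limma 0 of the 17 were called, where 0.0326% of all tested genes were. At an unadjusted p under 0.05, 4 were higher (10.2% of all tested genes) and 0 lower (4.37%). Cxcl2 and Cxcl1 were at least 2-fold higher without overlap (3.4%). Both encode neutrophil attractants. Cxcl2 had signals of 473 and 265 in GFP-negative cells and 1644 and 1407 in GFP-positive cells, a difference of 2.05 (1.26 to 2.84; limma adjusted p = 0.144). Cxcl1 had 100.3 and 127 against 255 and 284, a difference of 1.14 (0.58 to 1.70; adjusted p = 0.178), with its other probe sets at 0.96 and 1.38. Cxcl10, the interferon-induced ligand of Cxcr3, had 163 and 127 against 264 and 164, a difference of 0.49 (-0.24 to 1.21). Myeloid and epithelial cells are also known sources of Cxcl1 and Cxcl2, and their part was not tested. On GFP-positive replicates 1 and 2, Cxcl2 was at 1644 and 1407, the macrophage sum at 293 and 1538 and the epithelial sum at 3267 and 759.9. The macrophage markers Csf1r and Mrc1 and the epithelial markers Epcam and Krt18 were among those higher on both GFP-positive arrays, as Cxcl2 was.

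**Figure D4:**
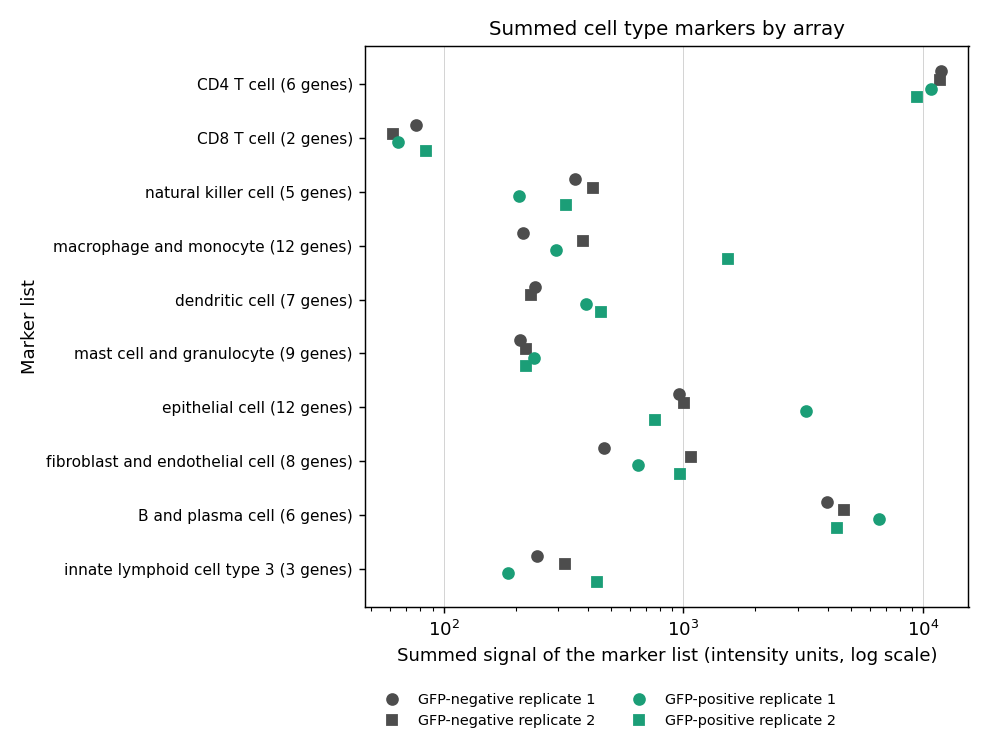
Summed signals of cell type marker lists (horizontal axis, intensity units, log scale) on the 4 arrays, with the number of genes measured in each list; grey is GFP-negative, green GFP-positive, circles replicate 1 and squares replicate 2. The macrophage sum stands apart on GFP-positive replicate 2 at 1538 and the epithelial sum on GFP-positive replicate 1 at 3267.

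Genes whose pattern over the 4 arrays lay closest to each chemokine gene were found by the Euclidean distance between log2 values centred on their mean, as a description over 4 arrays. Closest to Xcl1 were Themis, a T cell receptor signalling adaptor (distance 0.15, difference -1.69), and the survival gene Bcl2 (0.21, -1.57). Closest to Ccl1 were Atp8b4 (0.11, -1.13) and Vps72 (0.19, -1.13), and closest to Ccl5 were the interferon-inducible gene Ifi204 (0.13, -0.95) and the cyclin gene Ccnd3 (0.14, -0.90). Closest to Ccl20 were the carboxypeptidase gene Cpm (0.07, 1.10) and the angiogenin gene Ang (0.10, 1.02). Ccl3 lay closest to Igf2bp3 (0.05, 0.27) and Slc5a1 (0.06, 0.25), and Ccl4 to Ogg1 (0.04, -0.18) and Mest (0.04, -0.19). With 4 arrays many genes share any given pattern.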

How the data were processed

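RNA from sorted cells was labelled with biotin and hybridised to Affymetrix arrays, per the labels' protocols. The deposited values are linear intensities of probe sets. Software and background correction are not given in sources used here. Groups and replicate numbers came from the titles. The series text once gives the GFP-negative cells as lacking CD4, while all sample labels give CD4 T cells and were followed.

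Of 45101 probe sets 34958 had 1 gene symbol in the platform annotation, which can be old. Where a gene had several, the one of highest mean log2 value stood for it. Genes with a mean above the 40th percentile of all probe sets other than controls, 12253 in number, were tested. The filter lay at an intensity of 27.3, and all 6 chemokine genes passed it. Differences of log2(intensity + 16) were tested two-sided with limma 3.58.1 (eBayes without trend) in R 4.3.3, with group as the only term and Benjamini-Hochberg adjustment over all of these genes. Residual degrees of freedom were 2 and prior ones 3.74. The code was tested on simulated data, and intervals are 95% intervals of the model. Precision is limited by 2 arrays per group. Since the number of mice behind a sample is unknown, the p-values reflect the spread between these arrays alone.

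The members and lists were chosen with earlier results of these data known, and so were the promoter motifs. Named genes were the 6 chemokine genes, all measured genes of the lists of receptors, modifiers, transcription factors and partner cytokines, the 3 brightest other ligands and those 2-fold apart without overlap, the 2 genes of closest pattern for each chemokine gene, Gpr15, Cd3e and Cd4. Single marker genes such as Xist, Ncr1, Epcam and C1qb were named after their values were seen. Alternatives changed the pseudocount, scaling, filter, probe set rule, replicate block and eBayes settings or left out 1 array.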

Additional observations from a re-analysis of the deposited data

Results flagged for a closer look

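Some genes had differences of opposite sign within the 2 replicate numbers, which also separate the sexes of the mice. Each within-replicate value compares 1 array with 1 array, so the difference between replicate numbers was not tested. Ccl3 had -0.25 within replicate 1 and 0.79 within replicate 2, and Ccl4 had -0.58 and 0.22. The other genes so marked were the decoy receptor gene Ackr1 (-0.13 and 0.34), Klf13 (-0.090 and 0.46), Nfatc2 (-0.22 and 0.23), Rela (-0.035 and 0.20), Srgn (0.19 and -0.15) and Tnf (0.070 and -0.037).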

How the results depend on the processing

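Xcl1, Ccl1, Ccl5 and Ccl20 kept their sign in all 13 alternatives, over -1.96 to -1.24, -1.62 to -0.75, -1.41 to -0.59 and 0.64 to 1.43. Xcl1 passed the adjusted threshold with a pseudocount of 64 (difference -1.24) and with trend and robust settings (-1.60), where 1 of the 6 genes was called each time, and Gpr15 passed in the same 2 (1.76 and 2.02). Ccl1, Ccl3, Ccl4, Ccl5 and Ccl20 passed in 0. Leaving out 1 array gave -0.092 to 0.63 for Ccl3 and -0.40 to 0.041 for Ccl4. Genes called over all tested genes were 0 with a pseudocount of 1, quantile normalization, cyclic loess, no filter on dim genes, the replicate block or without any 1 array, with 1211 to 2129 genes then at an unadjusted p under 0.05, 174 with a pseudocount of 64 and 241 with trend and robust settings. Deviations of same-numbered arrays from their group means correlated at 0.20. The same-numbered arrays also shared a sex by Xist, but no label ties them to 1 mouse or batch. With the replicate number as a block Xcl1 had an adjusted p of 0.126 and no chemokine gene changed its call. Genes at least 2-fold apart without overlap numbered 1103 with a pseudocount of 1, 183 with one of 64, 897 without the filter, 367 with the mean of probe sets and 759 to 932 without 1 array, and of the 6 chemokine genes there was 1 with a pseudocount of 64 and 2 to 4 without 1 array. The receptors' median was 0.70 to 1.38 without 1 array. Over the 17 tested other ligands the median, 0.49, was 0.35 with a pseudocount of 64, 0.27 under median scaling and 0.27 to 0.62 without 1 array. The causes of these shifts were not tested. Signals near the filter, as for Ccl4 and Ccl20 in GFP-negative cells, limit what a difference can show.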
